A study of Mus musculus with 24 samples.

Results

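Potassium channels that end the cardiac action potential were followed in mouse ventricular cardiomyocyte (CM) nuclei through the first 2 weeks after birth. The set was fixed by name and held 9 genes: *Kcnd2*, *Kcnd3* and *Kcnip2* of the transient outward current, *Kcnq1* and *Kcnh2* of the delayed rectifier currents, *Kcnj2*, *Kcnj3* and *Kcnj5* of the inward rectifiers, and *Kcna5* of the ultrarapid current. All 9 were found among the 56923 gene identifiers of the count table, and 8 of them passed the filter on low counts that left 20368 genes for testing. *Kcna5* did not pass, since its 13 reads lay in 2 libraries and a read in 3 was required.

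The nuclei were sorted from pooled snap-frozen ventricles on PCM1, a centrosomal protein that marks CM nuclei, at postnatal day (P) 1, 7 and 14. Each pool held 15 hearts at P1, 6 at P7 and 2 at P14. Control mice were XMLC2(-)Casp2(fl/fl) and Casp2-depleted mice were XMLC2(+)Casp2(fl/fl), so both carried the floxed alleles of *Casp2*, which encodes caspase-2, and only the second carried the Cre driven by a myosin light chain promoter in CMs. Each of the 6 groups had 4 replicate libraries, of which 21 of 24 were fitted here, because the study set aside 3 for their quality: replicate 1 of the P1 controls, and from P14 replicate 3 of the controls and replicate 1 of the Casp2-depleted mice.

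In a ventricular CM, outward potassium currents return the membrane to its resting voltage after each beat. The fast transient outward current is carried by Kv4 pores together with an accessory calcium-binding subunit, the delayed rectifiers act later in the plateau, and the inward rectifiers hold the resting potential. In the mouse, the fast transient outward current shapes much of the short adult action potential, which is established in the weeks after birth as the CMs leave the cell cycle.

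The libraries held nuclear RNA counted over whole genes, introns included, with 891817 to 2924097 reads on genes per library and a median of 1452114. The P14 libraries were the poorest: 63.7% to 76.1% of their uniquely placed reads lay outside genes, against 34.3% to 64.3% at P7 and 36.8% to 73.9% at P1, and they detected 7628 to 13651 genes against 14006 to 17770 at P7. The 11 CM markers summed to between 10540 and 43710 CPM (reads of a gene scaled to the size of its library, with sizes set by the trimmed mean of M values, TMM) at P14 and to between 50890 and 160500 at P7, and 10 of the 11 were called lower at P14 than at P7. P14 had the smallest pools and, on median, the fewest genes detected and the highest percentage of reads outside genes, so these cannot be told apart from the day in its comparisons, and P1, with the largest pools, lay between P7 and P14 in its median percentage. Fewer CM nuclei in a pool and less RNA of a gene per nucleus cannot be told apart either. *Casp2* gave 17 reads in all, every one in a P7 library and 9 of them in controls, so it does not check the genotype labels.

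The promoters of the pairs that the comparisons below turn on are shown first. *Kcnd2* and *Kcnd3* encode the paralogous pores Kv4.2 and Kv4.3, and *Kcnj3* and *Kcnj5* encode Kir3.1 and Kir3.4, which assemble into 1 channel opened by G proteins. RefSeq promoters of build GRCm38.p6, from 250 bases before to 50 after the start, were matched for 8 of the 9 genes. They are printed 5′ to 3′ on the strand of the gene, and capitals mark matches to CANNTG (the E-box) and GGGCGG (the GC box), each searched on both strands. The *Kcnd2* window is chr6:21215096-21215395 on the plus strand, that of *Kcnd3* is chr3:105451640-105451939 on the plus strand, that of *Kcnj3* is chr2:55435720-55436019 on the plus strand, and that of *Kcnj5* is chr9:32344295-32344594 on the minus strand.
Kcnd2: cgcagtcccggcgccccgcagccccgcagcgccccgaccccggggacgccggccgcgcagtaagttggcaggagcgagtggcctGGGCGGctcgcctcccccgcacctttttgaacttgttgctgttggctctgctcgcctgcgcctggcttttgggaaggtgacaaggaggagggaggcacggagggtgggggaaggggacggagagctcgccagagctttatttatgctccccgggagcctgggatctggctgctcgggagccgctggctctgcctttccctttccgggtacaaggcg
Kcnd3: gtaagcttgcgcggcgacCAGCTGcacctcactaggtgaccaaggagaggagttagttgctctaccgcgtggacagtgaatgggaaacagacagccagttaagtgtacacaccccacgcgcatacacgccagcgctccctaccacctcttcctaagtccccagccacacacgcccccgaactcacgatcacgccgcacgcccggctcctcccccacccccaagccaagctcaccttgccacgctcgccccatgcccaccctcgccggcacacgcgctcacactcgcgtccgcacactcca
Kcnj3: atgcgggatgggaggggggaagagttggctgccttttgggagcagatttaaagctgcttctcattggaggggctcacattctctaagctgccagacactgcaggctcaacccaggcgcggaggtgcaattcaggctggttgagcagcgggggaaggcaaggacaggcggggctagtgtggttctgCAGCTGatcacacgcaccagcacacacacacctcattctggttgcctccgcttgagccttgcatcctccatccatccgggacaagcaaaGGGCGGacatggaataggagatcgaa
Kcnj5: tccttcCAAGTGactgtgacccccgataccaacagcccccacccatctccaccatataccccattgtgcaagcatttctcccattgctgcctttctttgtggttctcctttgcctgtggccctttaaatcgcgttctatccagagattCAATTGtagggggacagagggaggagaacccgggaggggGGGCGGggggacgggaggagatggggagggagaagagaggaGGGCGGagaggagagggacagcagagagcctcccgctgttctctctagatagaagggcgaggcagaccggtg

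The Kv4 promoters were richer in CpG than those of the Kir3 pair, with 26 CpG in the *Kcnd2* window and 25 in that of *Kcnd3* against 10 in each of *Kcnj3* and *Kcnj5*. The median over the table was 7. *Kcnd2* held no E-box and 1 GC box, *Kcnd3* held 1 E-box and no GC box, *Kcnj3* held 1 of each, and *Kcnj5* held 2 of each. Over 32851 promoters of the same length, 72.3% held CANNTG and 35.7% held GGGCGG. On either strand, the TATA box, searched as TATAAA, stood in 13.6% of all promoters, and the GATA-factor letters GATAA stood in 25.4%. Neither was found in these 4 windows.

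The nuclear levels of the 9 genes, as CPM in every library, are plotted by day.

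**Figure D1:**
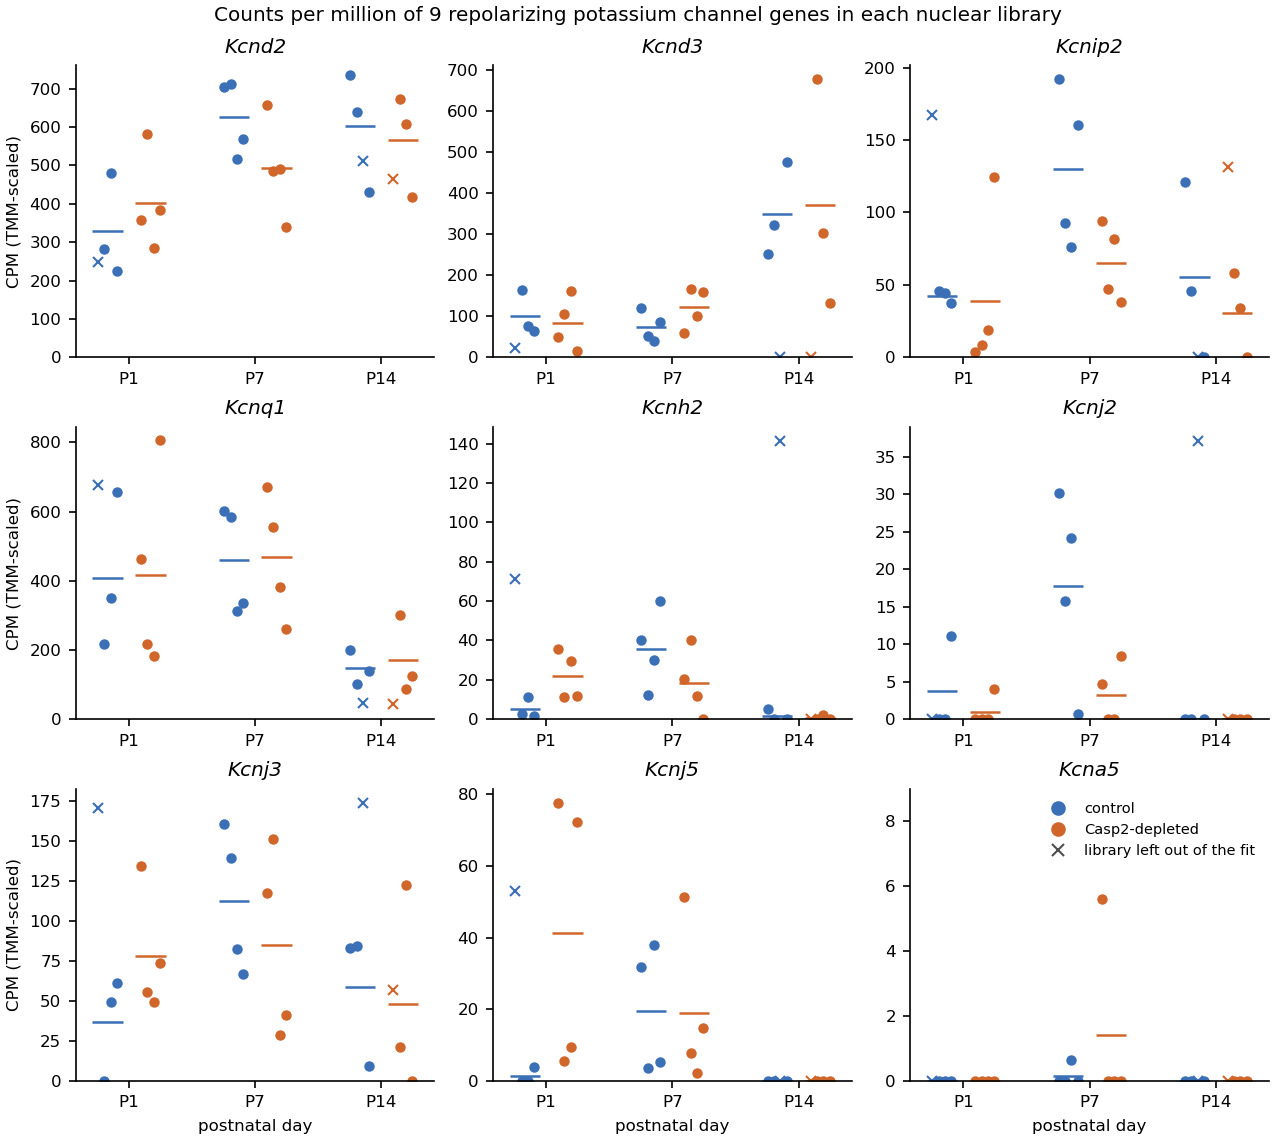
CPM (TMM-scaled, y axis, separate scale per gene) of the 9 potassium channel genes against postnatal day, with control libraries in blue, Casp2-depleted libraries in orange, group means of the fitted libraries as bars and the 3 libraries left out of the fit as crosses. *Kcnd3* is highest at P14, *Kcnq1* lowest there, and *Kcnj2* and *Kcnj5* have no read in any of the 6 fitted P14 libraries.

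The transient outward current is described first. *Kcnd3* (ENSMUSG00000040896, GRCm39 chr3:105359284-105581318, plus strand, 222.0 kb) was the 1 member called higher at P14. In controls it stood at 163.5, 77.2 and 64.2 CPM at P1 (replicates 2 to 4), at 121.0, 52.5, 40.5 and 85.3 at P7, and at 251.6, 323.3 and 475.5 at P14 (replicates 1, 2 and 4). In Casp2-depleted nuclei it stood at 49.6, 106.3, 161.2 and 15.5 CPM at P1, at 59.7, 167.0, 101.6 and 159.1 at P7, and at 677.8, 302.9 and 132.4 at P14 (replicates 2 to 4). All 3 P14 controls lay above every P7 control, whereas the lowest Casp2-depleted P14 library lay inside the P7 range.

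Averaged over the genotypes, *Kcnd3* rose from P7 to P14 by 1.92 on the log2 scale (SE 0.51, 95% interval 0.83 to 3.00, edgeR quasi-likelihood adjusted p = 0.00441) and from P1 to P14 by 1.97 (SE 0.54, adjusted p = 0.0112). A gene was called at an adjusted p under 0.05 with a change above 1 on the log2 scale. Only 36 of 20368 genes were called higher at P14 than at P7, or 0.177%, and 34 were called higher at P14 than at P1, or 0.167%. Between P1 and P7 the difference of *Kcnd3* was 0.05 (SE 0.49), a value whose sign turned under 4 other settings. The P7 to P14 call was lost without P14 Casp2-depleted replicate 2, the highest library (1.53, adjusted p = 0.0586 with the other 20). The P1 to P14 call was lost without that library (1.59, adjusted p = 0.0883), without P1 control replicate 3 (1.89, adjusted p = 0.0521) and without P1 control replicate 4 (1.85, adjusted p = 0.0639). Both P14 libraries that the study set aside had no *Kcnd3* read, and with all 24 libraries the change from P7 was 1.57 (adjusted p = 0.155) and that from P1 was 1.74 (adjusted p = 0.125). When the percentage of reads outside genes entered the fit, the P7 to P14 change was 0.62 (adjusted p = 0.957) and the P1 to P14 change was 1.58 (adjusted p = 0.109), neither called.

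*Kcnd2* (ENSMUSG00000060882, GRCm39 chr6:21214866-21729804, plus strand, 514.9 kb) was the member with the most reads, 16323 over the 21 libraries. It gave 282.6, 478.9 and 225.0 CPM in P1 controls and 356.5, 582.0, 286.0 and 384.5 in Casp2-depleted P1 nuclei. At P7 the controls gave 703.7, 710.6, 517.5 and 567.3 CPM and the Casp2-depleted libraries 657.5, 484.3, 489.3 and 339.9. At P14 the controls gave 735.1, 639.2 and 431.5 CPM and the Casp2-depleted libraries 673.6, 608.3 and 417.4. The P7 libraries (339.9 to 710.6 CPM) and the P14 libraries (417.4 to 735.1) overlapped, and only the P1 controls lay apart from the P7 controls. The log2 difference was 0.61 from P1 to P7 (SE 0.38, adjusted p = 0.694), 0.08 from P7 to P14 (SE 0.39, adjusted p = 0.992) and 0.68 from P1 to P14 (SE 0.40, adjusted p = 0.357). None was called by edgeR. Under limma-voom with quantile normalization *Kcnd2* was called higher at P14 than at P1 (1.28, adjusted p = 0.00177), and the adjusted p ran from 0.00177 to 0.464 over the 13 other settings. From P7 to P14 the difference ran from 0.02 to 0.96 over those settings (adjusted p from 8.05e-04 to 1.00), and quantile normalization called *Kcnd2* in Casp2-depleted nuclei there.

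The share of *Kcnd3* among the reads of both Kv4 pores does not depend on the scaling of the libraries, but it was not tested with the percentage of reads outside genes as a term. It was 36.6%, 13.9% and 22.2% in P1 controls, 14.7%, 6.88%, 7.25% and 13.1% in P7 controls and 25.5%, 33.6% and 52.4% in P14 controls. In Casp2-depleted nuclei it was 12.2%, 15.5%, 36.05% and 3.87% at P1, 8.32%, 25.6%, 17.2% and 31.9% at P7 and 50.2%, 33.2% and 24.1% at P14. The control groups of P7 and P14 did not overlap, and the Casp2-depleted groups did. The day means were 20.04% ± 12.4 (SD, n = 7), 15.6% ± 9.06 (SD, n = 8) and 36.5% ± 12.1 (SD, n = 6). The share was 20.9 percentage points higher at P14 than at P7 (two-sided exact permutation p = 0.00466, 0.0140 after adjustment over the 3 day comparisons) and 16.5 points higher than at P1 (exact permutation p = 0.0420, adjusted 0.0629). Within the controls the P7 to P14 difference was 26.7 points, at the smallest exact permutation p that 3 against 4 libraries allow (0.0571), and within the Casp2-depleted nuclei it was 15.1 points (exact permutation p = 0.229). With the 3 set-aside libraries included it fell to 11.8 points (exact permutation adjusted p = 0.440). In both P14 libraries set aside, 0 of 855 and 0 of 1092 reads came from *Kcnd3*, which allows shares of up to 0.447% and 0.351% (95% Wilson interval, counting error only). In the fitted P1 libraries with the highest and lowest percentage of reads outside genes (73.9% and 36.8%), the share was 36.6% and 3.87%. At P7 (64.3% and 34.3%) it was 31.9% and 8.32%, and at P14 (76.1% and 63.7%) it was 33.2% and 25.5%.

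**Figure D2:**
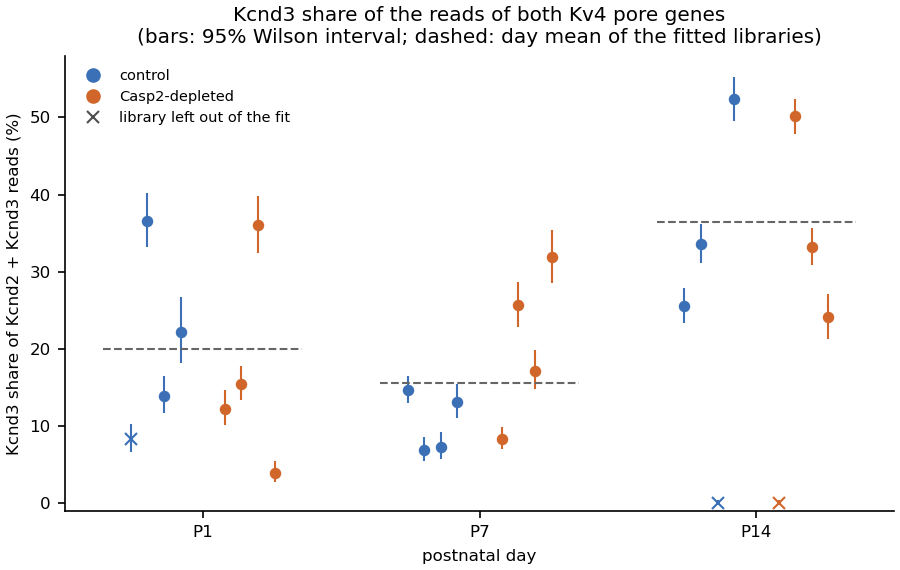
Share of *Kcnd3* (percent, y axis) among the reads of *Kcnd2* and *Kcnd3* against postnatal day, with 1 point per library, control in blue, Casp2-depleted in orange, 95% Wilson intervals as bars, set-aside libraries as crosses and the day mean of the fitted libraries dashed. The fitted P14 libraries lie between 24.1% and 52.4%, and the 2 set-aside P14 libraries at 0.

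*Kcnip2* (ENSMUSG00000025221, GRCm39 chr19:45780278-45804836, minus strand, 24.56 kb) encodes KChIP2, the accessory subunit that brings Kv4 pores to the surface and slows their inactivation. It stood at 45.5, 44.2 and 37.2 CPM in P1 controls and at 192.0, 92.8, 76.35 and 160.2 in P7 controls, which did not overlap. At P14 the controls stood at 121.2, 45.55 and 0. In Casp2-depleted nuclei it stood at 3.51, 8.39, 18.9 and 124.2 CPM at P1, at 94.2, 47.5, 81.7 and 38.5 at P7 and at 58.2, 33.9 and 0 at P14. The highest mean of both genotypes was therefore at P7, 97.9 ± 52.9 CPM (SD, n = 8), but the log2 differences were not called. They were 1.19 from P1 to P7 (SE 0.72, adjusted p = 0.685), -1.16 from P7 to P14 (SE 0.76, adjusted p = 0.327) and 0.03 from P1 to P14, and the last turned sign under 5 other settings. The P7 to P14 value ran from -3.08 to 0.15 over the 13 other settings, with the sign turned when the percentage of reads outside genes entered the fit. Single libraries moved the first to 2.08 (without P1 Casp2-depleted replicate 4) and the second to -1.80 (without P14 control replicate 1) and -0.72 (without P14 Casp2-depleted replicate 4).

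The delayed rectifiers follow. *Kcnq1* (ENSMUSG00000009545, GRCm39 chr7:142660099-142980788, plus strand, 320.7 kb) encodes the pore of the slow delayed rectifier. It gave 216.7, 349.0 and 655.2 CPM in P1 controls and 463.8, 216.1, 183.5 and 806.5 in Casp2-depleted P1 nuclei. At P7 the controls gave 600.4, 585.5, 313.9 and 336.8 CPM and the Casp2-depleted libraries 671.5, 556.3, 382.2 and 261.4. At P14 the controls gave 200.9, 101.6 and 140.1 CPM and the Casp2-depleted libraries 301.0, 85.9 and 125.9. All P14 controls lay below all P7 controls, and 2 of the 3 Casp2-depleted P14 libraries lay below all of their P7 group.

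*Kcnq1* fell by 1.54 on the log2 scale from P7 to P14 (SE 0.44, 95% interval -2.48 to -0.61, edgeR adjusted p = 0.00983). The median over all 20368 genes was itself -0.87 in this comparison, and 8.01% of genes were called lower. From P1 to P14 the difference of *Kcnq1* was -1.37 (SE 0.45, adjusted p = 0.0511), not called. It was called with DESeq2 (-1.19, adjusted p = 0.0325), with the robust spread estimate (-1.37, adjusted p = 0.0200), with the replicate number as a block (-1.47, adjusted p = 0.0420) and in 4 of 21 omissions of a library, and the adjusted p reached 0.714 over the 13 other settings. The 4 libraries omitted were P1 Casp2-depleted replicates 2 and 3 (adjusted p = 0.0291 and 0.0270), P14 control replicate 1 (adjusted p = 0.0340) and P14 Casp2-depleted replicate 2 (adjusted p = 0.0163). From P1 to P7 the difference was 0.17, with a sign that turned under 3 other settings. The P7 to P14 call was lost without P7 Casp2-depleted replicate 1 (-1.33, adjusted p = 0.0508), without P14 control replicate 2 (-1.26, adjusted p = 0.0695), without P14 Casp2-depleted replicate 3 (-1.20, adjusted p = 0.105) and without P14 Casp2-depleted replicate 4 (-1.28, adjusted p = 0.0732). It was also lost on total reads without TMM (-0.77, adjusted p = 0.208), with all 24 libraries (-1.71, adjusted p = 0.0534), under limma-voom with quantile normalization (-1.13, adjusted p = 0.0756) and when the percentage of reads outside genes entered the fit (-0.09, adjusted p = 1).

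The antisense transcript *Kcnq1ot1* (GRCm39 chr7:142731402-142850327, minus strand, 118.9 kb) lies inside *Kcnq1*, is transcribed from the other strand and is known for imprinting of the locus. Its mean was 105.0 ± 76.5 CPM at P1 (SD, n = 7), 79.2 ± 28.9 at P7 (SD, n = 8) and 103.3 ± 51.7 at P14 (SD, n = 6), and its P7 to P14 difference was 0.42 on the log2 scale (SE 0.62, adjusted p = 0.759). The difference between *Kcnq1* and *Kcnq1ot1* in this change was not tested. The counts separated strands: of 7151 genes lying wholly inside a gene on the opposite strand, 34.3% had reads, against 2.71% of 6598 on the same strand.

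*Kcnh2* (ENSMUSG00000038319, GRCm39 chr5:24524567-24556762, minus strand, 32.20 kb) encodes the ERG pore of the rapid delayed rectifier. It was a low gene, with 519 reads over 16 of the 21 libraries. In P1 controls it gave 2.40, 11.2 and 1.59 CPM, and in Casp2-depleted P1 nuclei 35.6, 11.2, 29.7 and 12.0. At P7 it gave 40.2, 12.2, 30.0 and 59.9 CPM in controls and 20.5, 40.4, 11.7 and 0 in Casp2-depleted nuclei. At P14 it had reads in 2 of 6 fitted libraries, at 4.93 and 1.88 CPM, where 0 reads allow up to 2.27 CPM in the shallowest of them. The P7 to P14 difference was -4.51 (SE 1.75, edgeR adjusted p = 0.0844), not called. *Kcnh2* was called lower by DESeq2 (-4.32, adjusted p = 0.00294), by limma-voom (-4.42, adjusted p = 0.00267) and with quantile normalization (-3.35, adjusted p = 0.0358), while the adjusted p reached 0.664 over the 13 other settings. It was also called without P14 control replicate 1, which held 7 of its reads (-6.72, adjusted p = 0.0347). The P14 control library that the study set aside held the most of all 24, 141.4 CPM.

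**Figure D3:**
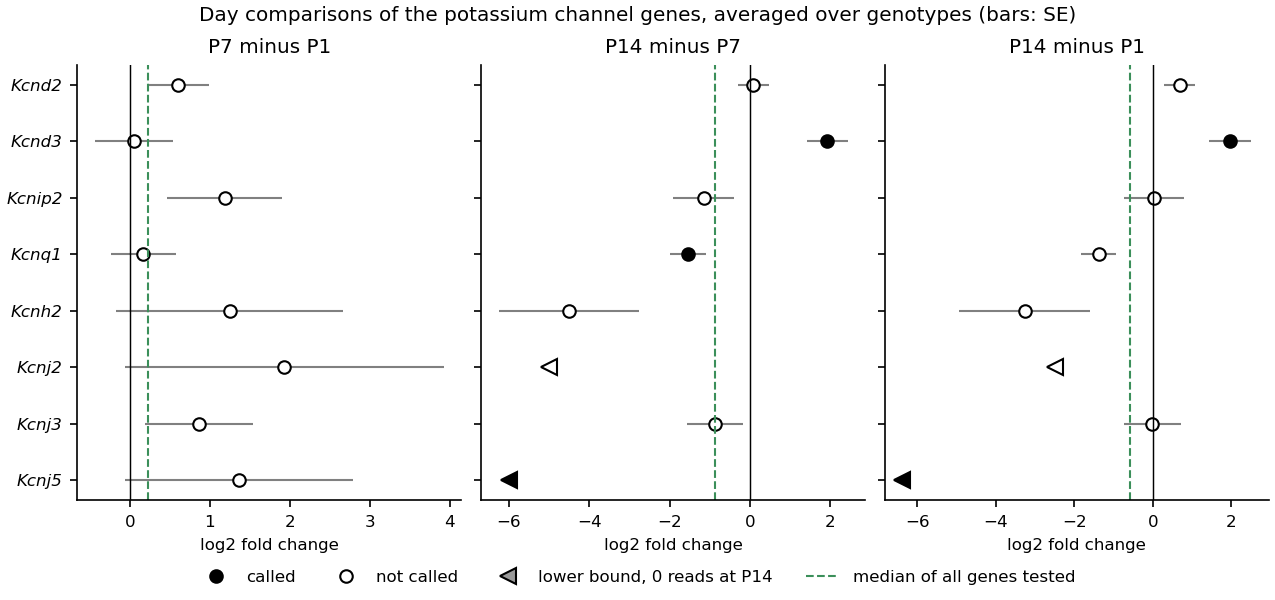
Log2 fold change averaged over genotypes (x axis) of the 8 tested genes for 3 pairs of days, with bars for 1 SE, filled symbols for called changes, triangles for lower bounds of genes with no P14 read and the median of all genes dashed. *Kcnd3* lies right of 0 and *Kcnq1* and *Kcnj5* left of the median of -0.87 for P14 against P7.

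Among the inward rectifiers, *Kcnj5* (ENSMUSG00000032034, GRCm39 chr9:32223328-32255691, minus strand, 32.36 kb) was at 0 in all 6 fitted P14 libraries. At P7 it gave 31.8, 3.60, 37.9 and 5.24 CPM in controls and 51.3, 7.91, 2.06 and 14.7 in Casp2-depleted nuclei, so every P7 library had reads and no P14 library did. The lowest P7 library, at 2.06 CPM, lay under the 2.27 CPM that 0 reads allow in the shallowest P14 library. At P1 it was 0, 0 and 3.96 CPM in controls and 77.7, 5.60, 9.44 and 72.3 in Casp2-depleted nuclei. With 3 reads over the P14 libraries as the limit, it was at least 63.5-fold lower at P14 than at P7 (edgeR adjusted p = 0.00397) and at least 83.5-fold lower than at P1 (adjusted p = 0.0306), in comparisons that called 8.01% and 3.82% of all genes lower. Within the genotypes the bound from P7 was 28.8-fold in controls and 34.7-fold in Casp2-depleted nuclei, and that from P1 was 1.56-fold and 70.7-fold. Casp2-depleted replicates 1 and 4 held most of the P1 reads, and the bound from P1 was 53.4-fold without the first and 56.5-fold without the second. With 1 library left out, the bound from P7 over both genotypes ran from 46.0-fold to 71.1-fold. The lowest was without P7 Casp2-depleted replicate 1, which held 110 reads, and the highest without replicate 3 of that group, which held 3. In measured values the P7 and P14 libraries did not overlap, as for 3.84% of all genes in this direction, and 2961 of the 20368 genes tested were at 0 in all 6 P14 libraries. The P7 call held with each library left out in turn, with adjusted p between 0.00298 and 0.0239, and in 12 of 13 other settings. It was lost when the percentage of reads outside genes entered the fit (adjusted p = 0.193). The P1 call was lost in 11 of 21 omissions and in 5 of 13 other settings. Among these omissions was P1 control replicate 4, the only fitted P1 control with *Kcnj5* reads, of which it held 5. Without it both control groups were at 0, and the averaged change could not be estimated (SE 1.307e+04). In the remaining omissions the edgeR adjusted p ran from 0.0217 to 0.0930. An opposite-strand gene, *Gm39317*, overlaps *Kcnj5* and held 200 reads.

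*Kcnj3* (ENSMUSG00000026824, GRCm39 chr2:55325801-55488157, plus strand, 162.4 kb), the partner pore, stayed detectable at P14. It gave 0, 49.1 and 61.0 CPM in P1 controls, 160.7, 139.5, 82.2 and 66.6 in P7 controls and 83.2, 84.4 and 9.09 in P14 controls. In Casp2-depleted nuclei it gave 133.9, 55.3, 49.2 and 73.8 CPM at P1, 117.5, 151.1, 28.8 and 41.3 at P7 and 21.1, 122.3 and 0 at P14. The controls of P1 and P7 did not overlap, and the other groups did. The P7 to P14 difference was -0.87 (SE 0.70, edgeR adjusted p = 0.452), or -1.80 without P14 Casp2-depleted replicate 3 and -0.38 without replicate 4. It ran from -2.14 to 0.65 over the 13 other settings, with the sign turned when the percentage of reads outside genes entered the fit. The difference from P1 to P14 was -0.01, with a sign that turned under 9 other settings. The changes of *Kcnj3* and *Kcnj5* were not tested against each other.

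*Kcnj2* (ENSMUSG00000041695, GRCm39 chr11:110956981-110967665, plus strand, 10.69 kb) encodes Kir2.1, the main pore of the ventricular inward rectifier. It had 162 reads in 8 of the 21 libraries, and 140 of them were at P7. The P7 controls gave 30.3, 15.8, 24.2 and 0.75 CPM and the Casp2-depleted P7 libraries 4.66, 0, 0 and 8.41. At P1 it was read in 1 control (11.1 CPM) and 1 Casp2-depleted library (3.99 CPM), and at P14 in none. Over the pooled libraries the P14 level was at least 32.3-fold lower than at P7 (edgeR adjusted p = 0.0707, not called). The bound was 26.0-fold in controls and 5.31-fold in Casp2-depleted nuclei, and 22.4-fold over both without P7 control replicate 1, which held the most reads. It was called by limma-voom (adjusted p = 0.0133), with quantile normalization (adjusted p = 0.0304) and with only the groups compared (adjusted p = 0.0482), while the adjusted p reached 0.524 over the 13 other settings. The P14 control set aside for quality gave 37.2 CPM. *Gm57334*, on the opposite strand of the locus, held 54 reads.

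*Kcna5* (ENSMUSG00000045534, GRCm39 chr6:126509514-126512375, minus strand, 2.862 kb), which encodes Kv1.5, was read in P7 control replicate 3 (0.65 CPM) and P7 Casp2-depleted replicate 1 (5.60 CPM) and in no other library. In the fitted libraries where it was at 0, that count allows up to 1.496 to 2.38 CPM (3 reads). Its absence at the other days is not shown at this depth.

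The levels were then set in order per 10 kb of gene span, since whole genes were counted. At P1 *Kcnip2* (16.4 CPM per 10 kb) came first, before *Kcnq1* (12.9), *Kcnj5* (7.46), *Kcnd2* (7.20), *Kcnh2* (4.60), *Kcnd3* (4.10), *Kcnj3* (3.72) and *Kcnj2* (2.02). At P7 *Kcnip2* (39.9 CPM per 10 kb) came first again, before *Kcnq1* (14.5), *Kcnd2* (10.9), *Kcnj2* (9.83), *Kcnh2* (8.34), *Kcnj3* (6.07), *Kcnj5* (5.97), *Kcnd3* (4.43) and *Kcna5* (2.73). At P14 the order was *Kcnip2* (17.6 CPM per 10 kb), *Kcnd3* (16.2), *Kcnd2* (11.3), *Kcnq1* (4.97), *Kcnj3* (3.29) and *Kcnh2* (0.353), with the others at 0. *Kcnd3* thus moved from the sixth place to the eighth and then to the second. The order differed between the genotypes: *Kcnd3* ranked 4, 8 and 2 at the 3 days in controls and 7, 6 and 1 in Casp2-depleted nuclei. *Kcnj5* at P1 ranked 8 in controls and 3 in Casp2-depleted nuclei, and *Kcnj2* at P7 ranked 2 and 9. The ranges of all neighbours in the orders over both genotypes overlapped, although *Kcnip2* exceeded *Kcnq1* in 8 of 8 P7 libraries and *Kcnd2* exceeded *Kcnq1* in 6 of 6 P14 libraries. Within the genotypes the neighbours *Kcnip2* and *Kcnj2* in P7 controls (53.1 and 16.6 CPM per 10 kb) and *Kcnd2* and *Kcnq1* in P14 controls (11.7 and 4.60) did not overlap. Per kb of exon over both genotypes, *Kcnd3* moved from the fifth place at P1 and P7 to the second at P14, and *Kcnip2* was no longer first at any day.

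From P7 to P14, 2 of the 8 tested genes had values above 0, *Kcnd3* and *Kcnd2* (0.08), and 6 had values below it, where 33.5% of all genes were above 0. With the percentage of reads outside genes in the fit *Kcnip2* and *Kcnj3* turned above 0, and without P14 control replicate 1 *Kcnd2* turned below it (-0.0076). From P7 to P14, 3 of 8 were called, 1 higher and 2 lower, where 8.19% of all genes were called, and 5 of 8 had an unadjusted p under 0.05, where 27.6% of all genes had. The median log2 difference of the 8 was -1.35 against -0.87 over all genes (-1.35 and -0.81 with genes at 0 set at their bound). From P1 to P14, 2 of 8 were called where 3.99% of all genes were, and the median of the 8 was -0.69 against -0.57. From P1 to P7 none of 8 was called by edgeR, none had an unadjusted p under 0.05 (8.80% of all genes had), and 0.133% of all genes were called. In that last comparison the fitted values of all 8 were above 0, as were 58.2% of all genes, although those of *Kcnd3*, *Kcnq1* and *Kcnj5* turned below 0 under other settings, and the median over all genes was 0.22. Within the genotypes 7 of the 8 were above 0 in controls and 6 of the 8 in Casp2-depleted nuclei, where *Kcnj5* gave -1.12 and *Kcnh2* gave -0.29. For *Kcnj5* the fitted value averaged over genotypes (1.36) went against the measured means, which were 24.2 CPM at P1 (SD 34.9, n = 7) and 19.3 at P7 (SD 18.6, n = 8). The CM markers *Ttn*, *Mybpc3* and *Myh6* were called higher in the same comparison (1.56, 1.54 and 1.10), and their part in the values of the channel genes was not tested.

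Within each genotype no member was called between any 2 days by edgeR, in comparisons that called 0.0491% of all genes in controls and 0.0245% in Casp2-depleted nuclei from P1 to P7, 1.93% and 3.01% from P7 to P14, and 0.363% and 2.17% from P1 to P14. From P7 to P14 in controls, 4 of the 8 genes had an unadjusted p under 0.05 (13.4% of all genes) and 5 of the 8 did not overlap (15.4% of all genes). *Kcnd3* was closest to a call there, at 2.23 (SE 0.72, adjusted p = 0.0827), and the Casp2-depleted value was 1.61 (adjusted p = 0.276). The control value was called in 6 of 13 other settings, among them DESeq2 (2.52, adjusted p = 0.00791), and in 5 of 21 omissions of a library, each outside the groups compared. It ran from 0.83 to 3.00 over the settings (adjusted p from 0.00367 to 0.882). The Casp2-depleted value was called on total reads (adjusted p from 0.0459 to 1 over the 13). *Kcnq1* gave -1.64 in controls (adjusted p = 0.194) and -1.45 in Casp2-depleted nuclei (adjusted p = 0.254), the latter turning to 0.01 with the percentage of reads outside genes in the fit. From P1 to P14 *Kcnd3* gave 1.78 in controls (edgeR adjusted p = 0.461) and 2.16 in Casp2-depleted nuclei (edgeR adjusted p = 0.0919). *Kcnj5* in Casp2-depleted nuclei was not called there (edgeR adjusted p = 0.0999). It was called by DESeq2 (adjusted p = 0.00183), limma-voom (adjusted p = 8.97e-04) and quantile normalization (adjusted p = 3.20e-04). From P1 to P7 in controls *Kcnd2*, *Kcnip2*, *Kcnh2* and *Kcnj3* did not overlap, all higher at P7, against 9.76% of all genes in either direction. In Casp2-depleted nuclei 0 of the 8 did not overlap from P1 to P7 (1.96% of all genes) and 1 of the 8, *Kcnj5*, did not overlap from P7 to P14 (13.1% of all genes). Counts were also simulated with the spread of these libraries. Genes with at least 200 reads were raised at P14, and all other genes were left unchanged between days. The control comparison of P14 with P7 recovered 2 of 200 genes raised 4-fold and 109 of 200 raised 16-fold, and the comparison averaged over genotypes 17 and 149. Falling genes, genes with fewer reads such as *Kcnj2*, and a general fall at P14 were not simulated.

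The question of the genotype, whether loss of caspase-2 in CMs moved these genes, gave no call in edgeR. There, 0 of 8 genes were called at P1 and at P7. At P14 and averaged over days 0 of 6 were called, since *Kcnj2* and *Kcnj5*, with no P14 read in either genotype, could not be tested there. None had an unadjusted p under 0.05 in any of these 4 comparisons, where 6.4%, 3.88%, 11.7% and 8.27% of all genes had. Over all genes 0, 0 and 47 were called at the 3 days (0.231% at P14) and 7 averaged (0.0344%). The 95% interval of the Casp2-depleted minus control difference was -1.43 to 0.74 for *Kcnd2* at P7, and over the days it was -0.72 to 1.05 for *Kcnd3* and -0.64 to 0.82 for *Kcnq1*. *Kcnj5* at P1 came nearest: the 4 Casp2-depleted libraries lay above the 3 controls, with a log2 difference of 4.91 (SE 2.53, edgeR adjusted p = 0.680), and 3.41% of all genes did not overlap at P1. It was called under limma-voom with quantile normalization (5.56, adjusted p = 0.0180), which called 63 of all genes at P1. The adjusted p reached 1 over the other settings. The P1 control that was set aside gave 53.15 CPM of *Kcnj5*, inside the Casp2-depleted range. The change of the genotype difference between days was called for 0 of 8 genes from P1 to P7 and for 0 of the 6 testable genes in both comparisons with P14, none with an unadjusted p under 0.05 in edgeR, while 0%, 0.0344% and 0.123% of all genes were called from P1 to P7, P7 to P14 and P1 to P14. For *Kcnd3* from P7 to P14 it was -0.62 (SE 1.01). The *Kcnd3* share differed between genotypes by -7.35 points at P1, 10.3 at P7 and -1.35 at P14 (exact permutation p = 0.457, 0.114 and 0.7).

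Gene span went with the size of the change over all genes. The tested genes were cut into 10 bins of equal gene number by span, and their median P7 to P14 difference ran from -2.30 (at bounds -1.79) in the second bin to 0.06 in the bin of the longest genes. *Kcnd2*, *Kcnd3*, *Kcnq1* and *Kcnj3* belong to that longest bin, so *Kcnq1* at -1.54 lay below the median of its bin and *Kcnd3* at 1.92 above it. *Kcnh2* and *Kcnj5* belong to a bin with a median of -1.11, *Kcnip2* to one with -1.29 and *Kcnj2* to one with -1.91. The part of span in these changes was not tested. Runs of 10 or more A, at which an oligo-dT primer can start, numbered 64 in the *Kcnd2* gene, 21 in *Kcnd3*, 26 in *Kcnq1*, 17 in *Kcnj3*, 6 in *Kcnip2*, 1 in *Kcnj5* and none in *Kcnh2*, *Kcnj2* or *Kcna5*.

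**Figure D4:**
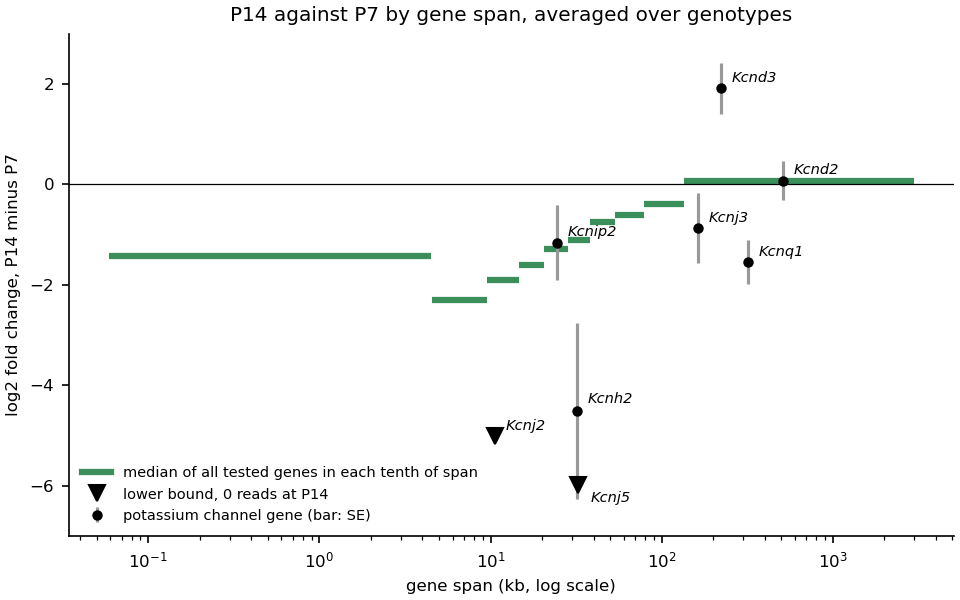
Log2 fold change of P14 against P7 averaged over genotypes (y axis) against gene span in kb (log x axis) for the 8 tested genes, with bars for 1 SE and triangles for lower bounds, beside the median of all tested genes in each of 10 bins of span in green. *Kcnd3* lies above and *Kcnq1* below the median of the longest bin, which is 0.06.

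Other genes of the same currents were read from lists, in a comparison that called 8.01% of all genes lower and 0.177% higher. Of 54 tested other potassium channel pores none was called higher and 3 were called lower from P7 to P14, with a median of -0.04 against -0.87. *Kcnj12*, which encodes Kir2.2, fell from 50.7 to 0.74 CPM (adjusted p = 4.03e-04), *Kcng2*, a silent partner of Kv2 pores, fell from 1427 to 660.5 CPM (-1.24, SE 0.34, adjusted p = 0.00662), and *Kcnt1* had no P14 read (at least 35.1-fold lower, adjusted p = 0.0352). Of 20 auxiliary subunits and anchors 5 fell, among them *Akap9*, which anchors protein kinase A to the slow delayed rectifier (-3.45, adjusted p = 7.57e-10), *Cav3*, caveolin of muscle (-6.12, adjusted p = 4.49e-04), and *Abcc9*, the sulphonylurea subunit SUR2 of the ATP-sensitive channel (-2.42, adjusted p = 9.98e-05). Of 14 genes of the G-protein input to Kir3 channels 3 fell, with *Chrm2*, the muscarinic M2 receptor, at -1.45 (adjusted p = 0.0189), *Rgs6* at -1.75 (adjusted p = 3.10e-04) and *Adora1* at -5.91 (adjusted p = 0.0194). Of 11 transcription factors of the regulator list 4 fell: *Irx4* had no P14 read (at least 94.4-fold lower, adjusted p = 7.51e-05), and *Irx3*, *Tbx20* and *Gata4* gave -4.99, -2.63 and -2.27. The calls of these lists come from the main edgeR fit and were not tested under the other settings. With the percentage of reads outside genes in the fit, 206 of all genes were called in this comparison, against 1668.

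Markers of other cells gave 2 erythroid globins and the mural marker *Abcc9* as called lower from P7 to P14, and no other call among the atrial, conduction, fibroblast, endothelial, mural, macrophage, erythroid and neuronal lists. The 5 atrial markers summed to 16.5 to 86.6 CPM at P7 and 4.48 to 58.2 at P14, with *Sln* at 0 at P1 and P14, and the 6 conduction markers to 64.8 to 197.6 and 68.9 to 353.1, with *Hcn4* and *Shox2* at 0 at P14. The 8 endothelial markers summed to 210.5 to 638.4 CPM at P7 and to 47.9 to 752.6 at P14, with *Egfl7* at 0 throughout, the 8 fibroblast markers to 123.6 to 261.2 and 128.5 to 310.9, the 8 mural markers to 318.8 to 681.8 and 60.6 to 391.3, the 8 macrophage markers to 50.1 to 236.9 and 30.3 to 238.2, the 7 erythroid markers to 5.74 to 95.1 and 0 to 69.8, and the 8 neuronal and Schwann cell markers to 52.7 to 219.3 and 61.3 to 224.8. Their part in the changes of the channel genes was not tested.

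Across the 21 libraries the genes most like each member by Pearson r of log2 CPM, among 16413 genes, differed from member to member. For the Kv4 complex they were *Csk* (0.78), *Limch1* (0.74) and *Pde4d* (0.73) beside *Kcnd2*, *Skint6*, *Ppfia2* (both 0.79) and *Opcml* (0.78) beside *Kcnd3*, and *Fblim1* (0.87), *Vps13a* and *Eml2* (both 0.85) beside *Kcnip2*. For the delayed rectifiers they were *Cav3* (0.92), *Msi2* and *Ablim1* (both 0.91) beside *Kcnq1*, and *Rtn4ip1*, *BC005537* (both 0.87) and *Actn4* (0.85) beside *Kcnh2*. For the inward rectifiers they were *Hirip3* (0.89), *Timm21* (0.87) and *Uchl1* (0.83) beside *Kcnj2*, *Strip2*, *Rbm27* (both 0.90) and *Ago2* (0.89) beside *Kcnj3*, and *Rsl1d1* (0.88), *Zfp40* and *Yipf7* (both 0.87) beside *Kcnj5*. Between members, *Kcnd3* ran against *Kcnj5* (-0.71) and *Kcnq1* (-0.68), *Kcnq1* ran with *Kcnj5* (0.67), and *Kcnd2* and *Kcnd3* gave 0.22. These values describe libraries that share day, depth and the percentage of reads outside genes.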

How the data were processed

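QuantSeq 3′ libraries (low-input protocol, single-end) were made from PCM1-sorted CM nuclei. The authors trimmed reads with cutadapt 4.0, checked them with FastQC 0.11.8, aligned them with STAR 2.6.1e to GRCm39 and deposited raw counts per gene from HTSeq 2.0.3, taken over exons and introns with Ensembl annotation. The strand setting is not given in the sources used here. Names and coordinates came from GENCODE on GRCm39 (56236 of 56923 identifiers, 99.5% of reads). Here the counts were fitted with edgeR 4.0.16 (TMM, quasi-likelihood, 6 group means, 21 libraries, at least 10 reads in all and a read in 3 libraries, Benjamini-Hochberg over 20368 genes, biological coefficient of variation 1.50). The study used limma, which was run here as an alternative beside DESeq2 1.42.0, other scalings and filters, equal depth, the replicate block, all 24 libraries and a robust spread estimate chosen after seeing the data. Log2 CPM used a prior count of 2. With 891817 to 2924097 reads per library, 0 reads allow up to 1.40 to 2.38 TMM-scaled CPM (3 reads). Wilson intervals and these limits cover counting error only, and intervals of log2 differences cover the spread between pools. No replicates agreed within counting noise (chi-square per degree of freedom at least 19.2). Each library was a pool of hearts, and p-values measure the spread between these pools. The script was tested on simulated data. The genes named were the members, the called genes of the fixed lists and the 3 genes most like each member. Members and lists were chosen with earlier results of these data known. Amino acid sequences are not used here.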

Additional observations from a re-analysis of the deposited data

Results flagged for a closer look

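In groups of 4 libraries, single values stood far from the other 3 for *Kcnip2* in P1 Casp2-depleted replicate 4 (124.2 CPM, against 3.51 to 18.9), *Kcnj2* in the same library (3.99 CPM, the others at 0), and *Kcna5* in P7 control replicate 3 (0.65 CPM) and P7 Casp2-depleted replicate 1 (5.60 CPM), each with the others of its group at 0. The measure was the gap to the nearest other library over the range of the group, against Dixon's 95% critical value, which chance passes in about 5% of groups of normally distributed values. Where the other libraries are at 0, any read passes it.

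For some genes the libraries that the study set aside gave values above every fitted library of their group. For others they lay below: *Kcnd3* was at 22.43 CPM in P1 control replicate 1 and at 0 in both P14 libraries, and *Kcnq1* was at 46.15 and 44.29 CPM in the latter. P1 control replicate 1 gave 167.1 CPM of *Kcnip2*, 677.5 of *Kcnq1*, 70.97 of *Kcnh2*, 170.2 of *Kcnj3* and 53.15 of *Kcnj5*. P14 control replicate 3 gave 141.4 CPM of *Kcnh2*, 37.16 of *Kcnj2* and 173.8 of *Kcnj3*, and P14 Casp2-depleted replicate 1 gave 131.2 CPM of *Kcnip2*. *Kcnj2*, at 0 in every fitted P14 library, was therefore read in 1 of the 8 P14 libraries sequenced, whereas *Kcnj5* was read in none of the 8. The part of library quality in these values was not tested.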

How the results depend on the processing

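The changes of *Kcnd3*, *Kcnq1* and *Kcnj5* from P7 to P14, averaged over genotypes, kept their direction under all 13 other settings and all 21 omissions of a library. *Kcnd3* ranged from 0.62 to 2.65 over the settings, *Kcnq1* from -1.71 to -0.09. The number of members called from P7 to P14 (3) became 5 with limma-voom and 4 with DESeq2, quantile normalization and only the groups compared. It became 2 on total reads, 1 with all 24 libraries and 0 with the percentage of reads outside genes in the fit, and 2 to 4 with a library left out. Over all genes 1668 were called in the main fit and 3242 with limma-voom. With all 24 libraries 1722 were called, and 206 with reads outside genes in the fit. The numbers over all genes for the other settings and for the omissions are not given here. Their counts of members are therefore not read as a result about the members. From P1 to P14 (2) the number of members called became 1 on total reads, at equal depth, with all 24 libraries and with only the groups compared. It became 0 with the percentage of reads outside genes in the fit. It became 3 with DESeq2 and the robust spread estimate (*Kcnq1* added) and with quantile normalization (*Kcnd2* added), and 0 to 3 with a library left out. Over all genes the main fit called 813 there, total reads 396, equal depth 652 and all 24 libraries 1416. With only the groups compared 209 were called, and 213 with reads outside genes in the fit. For DESeq2, the robust spread estimate, quantile normalization and the omissions the numbers over all genes are again not given. Their counts of members are not read as a result either. Within controls from P7 to P14 (0) the number of members called became 1 (*Kcnd3*) with upper-quartile factors, on total reads, at equal depth and with the robust spread estimate. It became 2 with DESeq2 (*Kcnd3* and *Kcnj5*), 3 with limma-voom (*Kcnj5*, *Kcnh2* and *Kcnj2*) and 2 with quantile normalization (*Kcnd3* and *Kcnj2*), and 0 to 1 with a library left out. Over all genes 394 were called there in the main fit, 1031 with DESeq2, 1150 with limma-voom and 702 with quantile normalization. Upper-quartile factors called 252, total reads 123, equal depth 292 and the robust spread estimate 382. Within Casp2-depleted nuclei from P7 to P14 (0) the number of members called became 1 on total reads, with DESeq2, limma-voom and quantile normalization. Those settings called 238, 1171, 830 and 814 of all genes, against 613 in the main fit. From P1 to P14 in these nuclei (0) the number became 1 on total reads and with the robust spread estimate. It became 3 with DESeq2, 2 with limma-voom and 3 with quantile normalization, and 0 to 1 with a library left out. Over all genes the main fit called 442 there, total reads 195 and the robust spread estimate 396. DESeq2 called 1188, limma-voom 429 and quantile normalization 610. The genotype comparison at P1 (0) gave 1 with quantile normalization, *Kcnj5* at 5.56 (limma-voom adjusted p = 0.0180). That setting called 63 of all genes, against 0 in the main fit. The *Kcnd3* share from P7 to P14 was 11.8 points higher with all 24 libraries and 17.7 to 23.4 points with a library left out, and from P1 to P14 it was 13.3 to 19.2 points.

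Other differences, none of them called, turned sign. *Kcnd3* from P1 to P7 gave -0.031 with the edgeR expression filter, -0.46 on total reads, -0.15 with DESeq2 and -0.13 at equal depth (-0.19 to 0.32 with a library left out). *Kcnq1* from P1 to P7 gave -0.17 on total reads, -0.0945 with quantile normalization and -0.45 with reads outside genes in the fit (-0.0223 to 0.43 with a library left out), and *Kcnj5* gave -0.33 with all 24 libraries. *Kcnd2* from P7 to P14 ran from -0.0076 to 0.35 with a library left out. *Kcnip2* from P1 to P14 gave -1.35 with limma-voom, -0.82 with quantile normalization, -0.0576 with all 24 libraries, -0.15 with the replicate block and -0.0023 with only the groups compared (-0.61 to 1.00 with a library left out). *Kcnj3* from P1 to P14 gave 0.0755 with the expression filter, 0.0754 with all 24 libraries, 0.0286 without a filter, 0.16 with upper-quartile factors, 0.44 on total reads, 0.18 with DESeq2, 0.27 at equal depth, 0.81 with reads outside genes in the fit and 0.0593 with only the groups compared (-0.99 to 0.43 with a library left out). With reads outside genes in the fit *Kcnip2* and *Kcnj3* from P7 to P14 gave 0.15 and 0.65, and *Kcnq1* in Casp2-depleted nuclei gave 0.0107 from P7 and 0.0254 from P1 to P14. *Kcnj5* from P1 to P14 in controls ran from -4.65 to 0 with a library left out. The cause was not tested.

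The replicate numbers were shared between groups. In their deviations from the group means, 46 same-numbered pairs correlated at -0.20 to 0.21 (median 0.01). The 137 pairs with different numbers correlated at -0.22 to 0.28 (median -0.0044). The labels do not say whether a number stands for a shared batch. With the number as a replicate block, *Kcnj5* from P1 to P14 was no longer called (adjusted p = 0.0863), *Kcnq1* was (-1.47, adjusted p = 0.0420), and the number of members called stayed at 2 from P1 and 3 from P7. Depth limits the genes with few reads, *Kcnh2*, *Kcnj2*, *Kcnj5* and *Kcna5*, whose levels lay near the limit that 0 reads allow in many libraries.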
